A study of Mus musculus with 7 samples.

Results

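The mitochondrial genome carries 37 genes, and their transcripts are described here in the inner cell mass of pre-implantation mouse embryos. The genes were found by Ensembl identifier and comprise 13 protein-coding genes, 2 ribosomal RNA (rRNA) genes and 22 transfer RNA (tRNA) genes, out of 52636 genes in the count table. Of these, 14 had at least 1 count, and 10 passed the filter on low counts: 7 protein-coding genes, both rRNA genes and 1 tRNA gene. A further 6 protein-coding genes, mt-Co2, mt-Atp8, mt-Atp6, mt-Co3, mt-Nd3 and mt-Nd4l, had between 0 and 2 counts over all libraries together.

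All embryos had the genotype Sox2Cre;CRAFR26, in which a tamoxifen-inducible cRAF construct turns on ERK signalling, and Sox2Cre is a Cre transgene driven by a promoter active in the epiblast lineage. Embryos flushed at embryonic day 2.5 were all kept for 24 h in medium with the FGF receptor inhibitor PD173074 at 250 nM, so the vehicle group carried the construct and received the inhibitor too. The vehicle group (3 libraries, time label 0 h) received ethanol for 4 h, and the tamoxifen group (4 libraries, time label 4 h) received 250 nM 4-hydroxytamoxifen for 4 h. Immunosurgery was done to remove the trophectoderm, 10 inner cell masses were pooled per library, and 2 ng of RNA went into each. The labels call the cells epiblast at embryonic day 3.5. The construct came from clone 4 or clone 8. Clone 4 gave 2 vehicle libraries (clone4_1 and clone4_2) and 2 tamoxifen libraries with the same numbers, whereas clone 8 gave a single vehicle library (clone8_1) and 2 tamoxifen libraries (clone8_1 and clone8_2). Values by library are given in that numbering, clone 4 before clone 8. The labels do not say which pools shared litters, so p-values measure the spread between these pools, and in such bulk samples fewer cells of a type and less RNA per cell cannot be told apart.

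Library totals ranged from 22981498 to 42294719 counts. All 10 epiblast markers examined were detected in every library, with summed levels of 1678 to 2058 CPM (counts relative to library size, corrected by TMM factors) in vehicle and 1734 to 2216 CPM in tamoxifen. The primitive endoderm markers summed to 804 to 1105 CPM in vehicle and 842 to 978 CPM in tamoxifen, with Sox7 at or near 0. Most of that sum was Dab2, at 560 to 823 CPM, while Sox17 was at 2.96 ± 2.30 CPM for vehicle (SD, n = 3) against 17.7 ± 7.93 CPM for tamoxifen (SD, n = 4) and Lama1 at 4.21 ± 0.882 against 10.8 ± 4.17 CPM. Trophectoderm markers were also present: the 10 genes summed to 8530 to 11227 CPM in vehicle and 6546 to 9534 CPM in tamoxifen, and Krt8, Krt18 and Cdx2 were above 0 in every library. Vehicle clone8_1 stood apart from the other libraries in several mitochondrial transcripts, given below.

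Mitochondrial DNA is a small circle that is transcribed on both strands into long precursor RNAs by the polymerase Polrmt with its cofactors Tfam and Tfb2m. The tRNA genes lie between most of the larger genes, and their excision releases the mRNAs and rRNAs. The proteins encoded are core subunits of 4 respiratory complexes: the Nd genes belong to complex I (NADH dehydrogenase), mt-Cytb to complex III, the Co genes to complex IV (cytochrome c oxidase) and the Atp genes to ATP synthase. mt-Nd6 is the only mRNA gene encoded on the strand opposite to the other mRNA genes. Pieces of mitochondrial DNA have also been copied into nuclear chromosomes in evolution, where they are annotated as pseudogenes.

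The genes with almost no counts lay next to each other, and, mt-Atp8 aside, nearly all of their sequence also occurs in a nuclear pseudogene. Among annotated nuclear transcripts, 11 listed pseudogenes matched a mitochondrial gene at 95% identity or more over at least 80% of the pseudogene. Any such match on a single other chromosome was left out of the list, so the 11 may not be all. Of these, 7 lie on the minus strand of chromosome 1, at chr1:24611535-24616197 (GRCm38), in the same order as their mitochondrial counterparts from mt-Co1 to mt-Nd4. The sum of a position in the mitochondrial gene and in its chromosome 1 copy was 24622577 or 24622578 throughout, a spread of 1 base, so the 7 copies form 1 collinear stretch that mirrors chrM:6394-11042.

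Sequences at both ends of this stretch and inside it are printed 5′ to 3′ from GENCODE M21 transcripts (GRCm38). They show where the match to annotated copies begins and ends and how far the copies differ. Capitals in mt-Co1 (chrM:6364-6423, plus strand, bases 1037 to 1096 of the gene) mark the start of the part identical to the copy Gm29216, and capitals in mt-Nd4 (chrM:11013-11072, plus strand, bases 847 to 906) mark the end of the part identical to Gm28439. That end is the last annotated base of Gm28439, and chromosome 1 sequence past it was not examined.
mt-Co1: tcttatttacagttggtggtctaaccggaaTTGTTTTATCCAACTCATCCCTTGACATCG
mt-Nd4: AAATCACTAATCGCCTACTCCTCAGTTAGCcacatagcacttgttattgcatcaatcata
The first 60 bases of mt-Nd3 (chrM:9459-9518, plus strand) and of its copy Gm28438 (chr1:24613060-24613119, minus strand) differ in the single base in capitals, the substitution T3C counted from the first base of mt-Nd3.
mt-Nd3: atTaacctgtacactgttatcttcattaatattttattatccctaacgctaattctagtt
Gm28438: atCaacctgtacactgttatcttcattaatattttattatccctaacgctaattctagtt
The first 60 bases of mt-Co2 (chrM:7013-7072, plus strand) are identical in the chromosome 1 copy Gm28661 (chr1:24615506-24615565, minus strand) and differ at the capitals from Gm13341 on chromosome 2 (chr2:22587903-22587962, minus strand).
mt-Co2: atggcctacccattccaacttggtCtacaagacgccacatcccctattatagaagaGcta
Gm28661: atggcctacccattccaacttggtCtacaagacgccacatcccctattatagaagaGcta
Gm13341: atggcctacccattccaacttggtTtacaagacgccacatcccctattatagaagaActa
mt-Atp8, a small ATP synthase subunit, ends inside mt-Atp6, and the 43 bases they share are in capitals (chrM:7910-7969, plus strand, bases 145 to 204).
mt-Atp8: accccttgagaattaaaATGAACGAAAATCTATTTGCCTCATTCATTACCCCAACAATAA
mt-Tp, the proline tRNA (chrM:15356-15422, minus strand), is shown whole as the 1 tRNA that was counted in quantity, with its anticodon in capitals.
mt-Tp: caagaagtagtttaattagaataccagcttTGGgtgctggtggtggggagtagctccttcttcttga

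Shared sequence was measured as the percentage of all 75-base windows of a gene that occur unchanged in an annotated nuclear transcript. It was 99.5% for mt-Co2, 99.5% for mt-Atp6, 99.9% for mt-Co3, 97.8% for mt-Nd3 and 98.7% for mt-Nd4l. The same 5 genes were among the 6 protein-coding genes without usable counts. In mt-Nd4 and mt-Co1, which were counted, 61.5% and 39.8% of windows were shared. In mt-Nd2 the figure was 5.7% and in mt-Nd5 it was 1.7%, while mt-Rnr1, mt-Rnr2, mt-Nd1, mt-Nd6 and mt-Cytb had no shared window. mt-Atp8 was the exception, with 0 counts and no shared window: no pseudogene is annotated between Gm28661 and Gm10925, the copies of mt-Co2 and mt-Atp6, but those copies lie 233 bases apart against 230 bases between mt-Co2 and mt-Atp6 themselves. The nuclear genome sequence was not used here, so windows in nuclear DNA outside annotated transcripts were not counted.

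mt-Co2, a subunit of cytochrome c oxidase, had 1 count, in vehicle clone4_1. mt-Atp6, the ATP synthase subunit of the proton channel, had 2 counts, 1 in vehicle clone4_2 and 1 in tamoxifen clone4_2. mt-Co3 of complex IV, mt-Nd3 and mt-Nd4l of complex I and mt-Atp8 had 0 counts in all 7 libraries, which at these depths allows at most 0.0709 to 0.131 CPM (3 counts of a library, counting error only). No comparison of tamoxifen with vehicle was possible for these 6 genes.

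**Figure D1:**
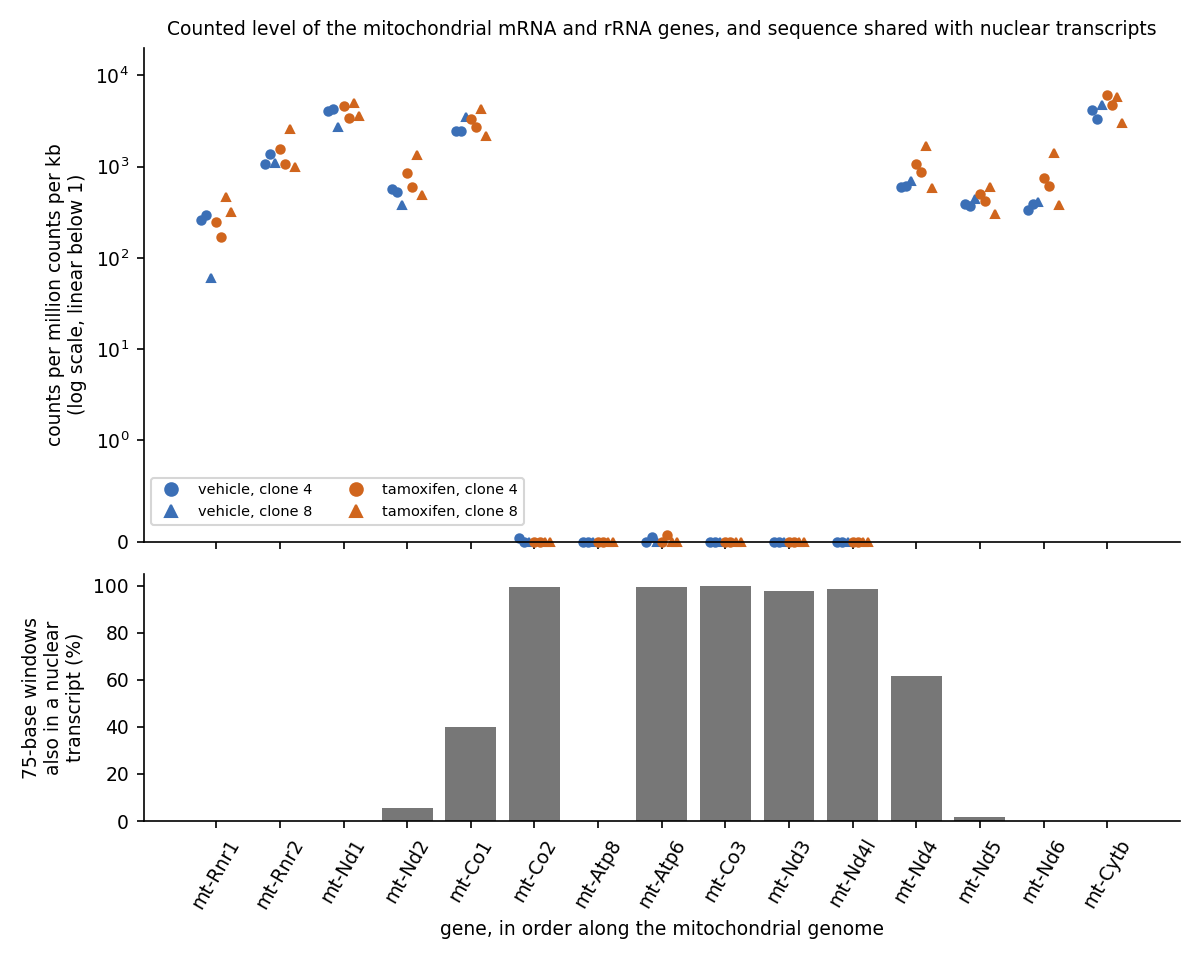
Top: CPM per kb without TMM factors (log scale, linear below 1) of the 15 mRNA and rRNA genes in order along the mitochondrial genome, 1 point per library. Bottom: percentage of the 75-base windows of each gene that also occur in an annotated nuclear transcript. The 6 genes at or near 0 sit together, and 5 of them have at least 97.8% of their windows in a nuclear transcript.

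The nuclear copies in that list held few counts. Summed over the 11 copies, a library had 351 to 1053 counts, against 405034 to 967977 counts in the 37 mitochondrial genes. Gm28438, the copy of mt-Nd3, had the most, 2710 over all libraries, followed by Gm29216 (899) and Gm13340 (556), copies of mt-Co1, and by Gm13341 (163) and Gm28661 (81), copies of mt-Co2. The level of Gm28438 was 8.66, 11.96 and 2.29 CPM in vehicle, and 15.06, 9.40, 21.70 and 10.39 CPM with tamoxifen. Vehicle clone8_1 was lowest, and the groups overlapped (log2 fold change 0.89, SE 0.51, adjusted p = 0.798 in edgeR). How reads that match several places were counted is not given in the sources used here, and the part of this shared sequence in the counts of 0 was not tested.

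Levels per annotated kb put the counted genes in much the same order in every library. mt-Cytb, mt-Nd1 and mt-Co1 were the first 3 in all 7 libraries, mt-Rnr2 came next and then mt-Nd4 in all 7, and mt-Rnr1 was last in 6 of 7, leaving mt-Tp aside. Over all libraries the level was 4552 ± 1166 CPM per kb (SD, n = 7) for mt-Cytb, 3960 ± 819 for mt-Nd1 and 2960 ± 729 for mt-Co1. mt-Cytb and mt-Nd1 differed by less than their SD. mt-Rnr2 followed with 1400 ± 579 CPM per kb, mt-Nd4 with 870 ± 400, mt-Nd2 with 681 ± 328, mt-Nd6 with 614 ± 383, mt-Nd5 with 431 ± 94.7 and mt-Rnr1 with 260 ± 128 (SD, n = 7 each). From mt-Nd4 to mt-Nd6 neighbouring genes differed by less than their SD over libraries. Within libraries mt-Nd4 was nonetheless above mt-Nd2 and mt-Nd6 in all 7, while the order of mt-Nd2 and mt-Nd6 varied. Dividing the whole count of a gene by its unshared windows put mt-Nd4 at 2388 ± 1099 CPM per 1000 unshared windows. That was above mt-Rnr2 at 1469 ± 607 on the same scale. mt-Co1 was then at 5168 ± 1272, which differed from mt-Cytb at 4867 ± 1246 by less than the SD (n = 7 each). Reads were not restricted to unshared windows, so this scale assumes that no read of shared sequence was counted, which was not tested.

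The 2 rRNA genes encode the RNAs of the small and the large subunit of the mitochondrial ribosome. mt-Rnr1, the 12S rRNA (chrM:70-1024), was at 253, 282 and 56.5 CPM in vehicle and at 236, 158, 450 and 302 CPM in tamoxifen. Vehicle clone8_1 was far below every other library, and the groups overlapped. mt-Rnr2, the 16S rRNA (chrM:1094-2675), was at 1707, 2216 and 1698 CPM in vehicle and at 2462, 1689, 4156 and 1581 CPM in tamoxifen. Here tamoxifen clone8_1 was highest, and its clone mate clone8_2 was lowest. Per kb, mt-Rnr2 exceeded mt-Rnr1 by 3.16 to 6.43 times in the tamoxifen libraries and by 4.08, 4.75 and 18.1 times in the vehicle libraries, 18.1 being that of clone8_1.

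Among complex I mRNAs, mt-Nd1 (chrM:2751-3707) was at 3988, 4093 and 2532 CPM in vehicle and at 4442, 3244, 4835 and 3394 CPM in tamoxifen. mt-Nd2 (chrM:3914-4951) was at 602, 552 and 387 CPM in vehicle and at 891, 618, 1396 and 505 CPM in tamoxifen. In both genes vehicle clone8_1 was lowest and tamoxifen clone8_1 highest, and the groups overlapped. mt-Nd4 (chrM:10167-11544) was at 839, 857 and 922 CPM in vehicle and at 1463, 1175, 2330 and 807 CPM in tamoxifen. Of its tamoxifen libraries 3 lay above all vehicle libraries and clone8_2 lay below them. mt-Nd5 (chrM:11742-13565) was at 721, 677 and 783 CPM in vehicle and at 921, 763, 1087 and 555 CPM in tamoxifen, with clone8_2 again lowest.

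mt-Nd6 (chrM:13552-14070, minus strand), the complex I subunit encoded on the opposite strand, was at 176, 206 and 209 CPM in vehicle and at 392, 316, 734 and 198 CPM in tamoxifen. The vehicle libraries lay close together, the first 3 tamoxifen libraries stood above them, and clone8_2 fell within the vehicle range. The end of mt-Nd6 overlaps the end of mt-Nd5 on the other strand by a few bases, and the strand setting of the counting is not given in the sources used here, so reads of that overlap cannot be assigned. If strand was not used, reads of opposite-strand precursors over the whole of mt-Nd6, and likewise over mt-Tp, cannot be told apart from reads of the gene itself.

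mt-Cytb (chrM:14145-15288), the complex III subunit that binds ubiquinone, was at 4806, 3829 and 5296 CPM in vehicle and at 7029, 5353, 6685 and 3452 CPM in tamoxifen. mt-Co1 (chrM:5328-6872), the catalytic subunit of cytochrome c oxidase, was at 3841, 3795 and 5239 CPM in vehicle and at 5075, 4133, 6589 and 3344 CPM in tamoxifen. In both genes clone8_2 was the lowest library of all, and for mt-Cytb the other 3 tamoxifen libraries lay above all vehicle libraries.

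The tRNA genes had almost no counts in the table, which need not reflect their level in the cells. Of the 22, 19 had 0 counts in every library, mt-Tn (asparagine) had 5 counts in all and mt-Tc (cysteine) had 4. mt-Tp was the exception, at 7.0, 10.2 and 4.8 CPM in vehicle and at 12.4, 8.9, 20.5 and 7.1 CPM in tamoxifen. Tamoxifen clone8_1 was again highest and vehicle clone8_1 lowest. Of the 22 tRNA genes, 17 lie within 3 bases of an annotated gene on both sides. mt-Tn and mt-Tc flank an unannotated gap of 32 bases, and no annotated gene lies beyond mt-Tp. However, mt-Tf, with no annotated gene before it, and mt-Te, 5 bases from mt-Cytb, had 0 counts in every library.

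**Figure D2:**
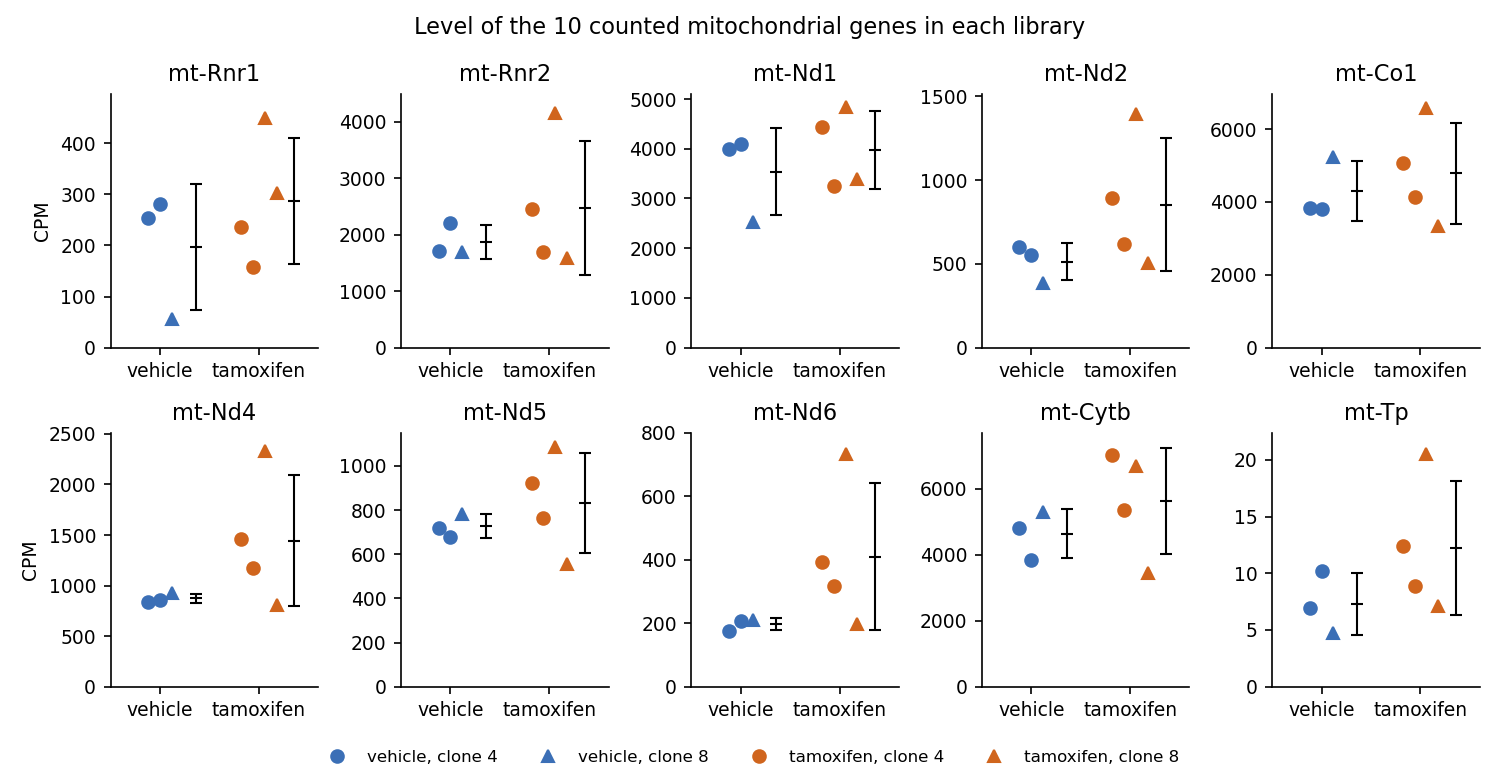
CPM of the 10 counted mitochondrial genes, 1 point per library (circles clone 4, triangles clone 8), with the group mean and SD beside the points (n = 3 vehicle and 4 tamoxifen). In every gene the groups overlap, and the tamoxifen points are spread more widely than the vehicle points in mt-Nd4, mt-Nd5 and mt-Nd6.

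Across genes, the libraries themselves were ordered. Tamoxifen clone8_1 had the highest CPM of 9 of the 10 genes, and tamoxifen clone4_1 that of the remaining gene, mt-Cytb. The lowest value fell in tamoxifen clone8_2 for 5 genes, in vehicle clone8_1 for 4 and in vehicle clone4_1 for 1. For 5 genes the highest and the lowest library were thus both tamoxifen libraries.

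The mitochondrial share of all counts was 1.67%, 1.63% and 1.75% in vehicle. With tamoxifen it was 2.29%, 1.76%, 2.80% and 1.42%. The 95% Wilson intervals reached 0.00361 to 0.00612 percentage points to either side, and cover counting error only. The vehicle libraries lay close together, while the tamoxifen libraries extended above and below them. The mean was 1.68% ± 0.0638 for vehicle (SD, n = 3) against 2.07% ± 0.607 for tamoxifen (SD, n = 4), a difference of 0.382 percentage points that is smaller than the spread of the tamoxifen group. Without tamoxifen clone8_1 the difference was 0.137 points, without tamoxifen clone8_2 it was 0.599 points, and without both libraries numbered clone8_1 it was 0.172 points. Since 6 mRNA genes were hardly counted, the share covers only the counted genes.

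Within the mitochondrial counts, mRNA genes held 87.6% ± 2.54 (SD, n = 3 vehicle libraries) and, with tamoxifen, 87.0% ± 2.47 (SD, n = 4). The rRNA genes held 12.3% ± 2.52 and 12.99% ± 2.47, and the tRNA genes 0.0436% ± 0.0172 and 0.0572% ± 0.0106, in the same groups. The differences of the mRNA and rRNA genes were smaller than the spread between libraries, and all 3 classes overlapped between groups. How well library preparation captured each class was not tested. These percentages, and the order of rRNA and mRNA levels above, thus describe counts and not the RNA content of the cells.

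**Figure D3:**
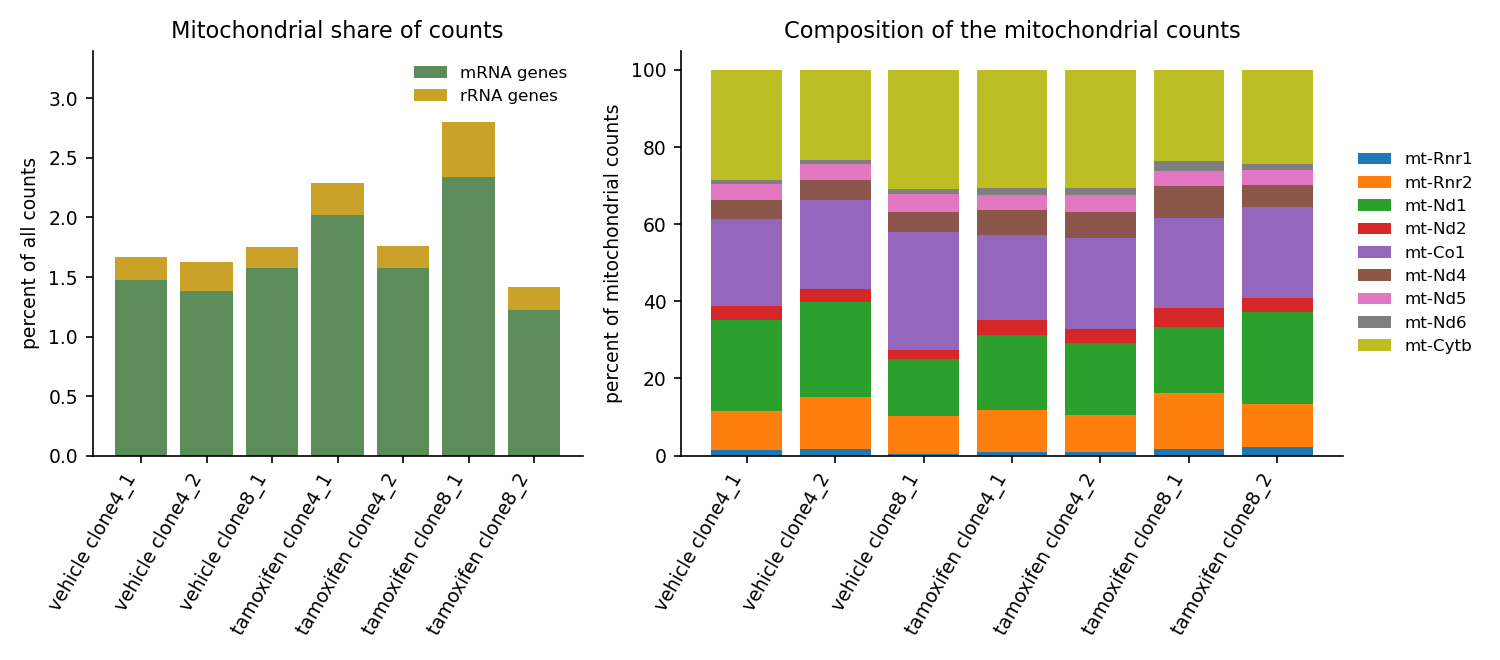
Left: mitochondrial mRNA and rRNA genes as a percentage of all counts in each library. Right: percentage of the mitochondrial counts held by each gene, with mt-Tp too small to draw. Tamoxifen clone8_1 has the highest share (2.80%) and tamoxifen clone8_2 the lowest (1.42%), and in vehicle clone8_1 mt-Nd1 takes less and mt-Co1 more of the mitochondrial counts than in the other libraries.

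Composition separated the groups in mt-Nd6 and mt-Nd4, although CPM did not. mt-Nd6 held 1.04%, 1.25% and 1.22% of the mitochondrial counts in vehicle, and 1.71%, 1.81%, 2.59% and 1.40% in the 4 tamoxifen libraries. mt-Nd4 held 4.95%, 5.19% and 5.38% in vehicle and 6.38%, 6.73%, 8.24% and 5.70% in tamoxifen. Every tamoxifen library was above every vehicle library for both genes, in clone 4 and in clone 8. Of the 10 counted genes these 2 were higher without overlap and 0 were lower without overlap. Of all 16248 genes tested, taken relative to the mitochondrial count in the same way, 1.14% were higher and 3.03% lower without overlap. These shares are a description, with no test. The 10 genes are part of the mitochondrial count they were divided by, whereas nuclear genes take on its spread between libraries. The 2 of 10 therefore cannot be read against those percentages.

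In vehicle clone8_1 other genes departed too: mt-Nd1 held 14.8% of its mitochondrial counts against 17.1% to 24.8% in the other libraries, and mt-Co1 held 30.6% against 22.1% to 23.7%. mt-Rnr1 held 0.33% in that library and 0.91% to 2.13% elsewhere.

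Ratios between transcripts, on the CPM per kb scale, showed the same separation. The ratio of mt-Nd6 to mt-Nd5, neighbours on opposite strands, was 0.857, 1.07 and 0.936 in vehicle. It was 1.50, 1.46, 2.37 and 1.25 with tamoxifen, above every vehicle library. The ratio of mt-Nd4 to mt-Nd5, neighbours on the same strand, was 1.54, 1.68 and 1.56 in vehicle and 2.10, 2.04, 2.84 and 1.92 in tamoxifen, again without overlap. For mt-Nd6 to mt-Cytb the vehicle libraries ranged from 0.0806 to 0.119 and the tamoxifen libraries from 0.123 to 0.242, a narrow gap. In all, 3 of 7 ratios did not overlap between groups. The other 4 overlapped: mt-Nd2 to mt-Nd1, mt-Cytb to mt-Co1, mt-Nd1 to mt-Rnr2 and mt-Rnr2 to mt-Rnr1. All 3 ratios without overlap have mt-Nd6 or mt-Nd4 as numerator, so they are not separate from the composition result. The share of such ratios over other pairs of genes was not computed.

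**Figure D4:**
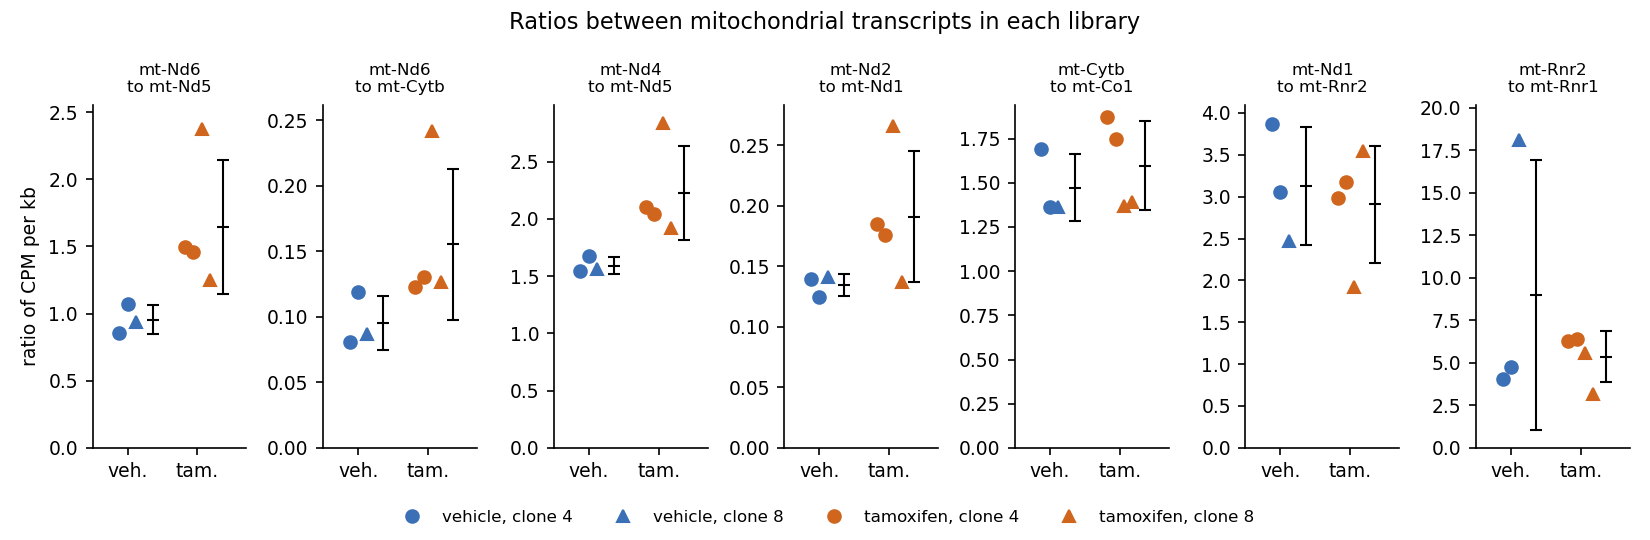
Ratios of CPM per kb between pairs of mitochondrial transcripts, 1 point per library (circles clone 4, triangles clone 8), with the group mean and SD (n = 3 vehicle and 4 tamoxifen). The ratio of mt-Nd6 to mt-Nd5 is at most 1.07 in vehicle and at least 1.25 in tamoxifen, while the ratio of mt-Rnr2 to mt-Rnr1 reaches 18.1 in vehicle clone8_1 alone.

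The comparison of tamoxifen with vehicle asked which transcripts changed after 4 h of ERK induction. No mitochondrial gene passed the threshold: 0 of 10 reached an adjusted p under 0.05 (edgeR quasi-likelihood test, adjusted over the 16248 genes tested). The same was true of all genes (0% called, with 970 genes at an unadjusted p under 0.05), and DESeq2 called 4 genes, none of them mitochondrial. All 10 estimates were above 0, as were 51.7% of all genes, and their median log2 fold change was 0.47 against 0.019 over all genes. Without tamoxifen clone8_1, 9 of the 10 were above 0 and their median was 0.21, and with both libraries numbered clone8_1 left out 7 were above 0 and the median was 0.13. Of the 10, 2 were higher at an unadjusted p under 0.05 (2.69% of all genes were) and 0 were lower (3.28% of all genes were). In CPM, 0 of the 10 separated the groups, against 8.45% of all genes (3.71% higher and 4.74% lower).

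The largest estimate was that of mt-Nd6, at 1.06 on the log2 scale (SE 0.37, unadjusted p = 0.0168, adjusted p = 0.794 in edgeR), followed by mt-Tp with 0.74 (SE 0.41, adjusted p = 0.794). mt-Nd2 had 0.73 (SE 0.33, unadjusted p = 0.0501, adjusted p = 0.794) and mt-Nd4 had 0.73 (SE 0.30, unadjusted p = 0.0371, adjusted p = 0.794), both in edgeR. mt-Rnr1 stood at 0.54 (SE 0.50) and mt-Rnr2 at 0.40 (SE 0.31). The other mRNAs had smaller estimates: mt-Cytb 0.28 (SE 0.24), mt-Nd5 0.19 (SE 0.22), mt-Nd1 0.17 (SE 0.21) and mt-Co1 0.16 (SE 0.23). Leaving out tamoxifen clone8_1 lowered mt-Nd6 to 0.62, mt-Nd4 to 0.40, mt-Nd2 to 0.39 and mt-Tp to 0.38. With both libraries numbered clone8_1 left out mt-Nd6 was at 0.65, mt-Nd4 at 0.43, mt-Nd2 at 0.21 and mt-Tp at 0.14. Without vehicle clone4_1 none of the 10 genes had an unadjusted p under 0.05, and without tamoxifen clone8_2 5 did. The share of all genes at that threshold was not computed for these fits. The counts show only how far the number moved with the libraries used.

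Clone 4 had 2 libraries in each condition, and the estimates within it are a part of those over all 7 libraries, which share these samples. The log2 fold change of mt-Nd6 was 0.88 (SE 0.17, unadjusted p = 0.0012, adjusted p = 0.550 in edgeR), mt-Nd4 0.63 (SE 0.15, unadjusted p = 0.0036, adjusted p = 0.550) and mt-Cytb 0.51 (SE 0.17, unadjusted p = 0.0219, adjusted p = 0.588). Both tamoxifen libraries were above both vehicle libraries in each of these genes, and likewise in mt-Nd2, mt-Co1 and mt-Nd5. mt-Rnr1 had the reverse order, and mt-Rnr2, mt-Nd1 and mt-Tp overlapped. The share of all genes with either order was not computed. With 2 libraries in each condition the order is a description and cannot be read as a result about these genes. Of the 10, 3 were higher at an unadjusted p under 0.05, against 3.54% of the 16060 genes tested. None of the 10 was called at an adjusted p under 0.05 in edgeR, nor was any gene (0%, with 1264 genes at an unadjusted p under 0.05). DESeq2 called 142 genes within clone 4, mt-Nd6 (adjusted p = 0.0017) and mt-Nd4 (adjusted p = 0.0297) among them. Leaving out vehicle clone4_1 gave 250 called genes in edgeR and leaving out vehicle clone4_2 gave 309, mt-Nd6 among them both times (adjusted p = 0.0412 and 0.0189). Leaving out either tamoxifen library gave 0 called genes, with mt-Nd6 at adjusted p = 0.9996 and 0.9999 in edgeR. Each of these fits had 1 library in an arm, which was assumed to vary like the others. mt-Rnr1 had an estimate of -0.44 (SE 0.21) and mt-Nd1 of -0.08 (SE 0.16), both below 0 in this clone.

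Whether the change differed between the clones was tested with the interaction of clone and condition. mt-Rnr1 was called, with a log2 change 3.17 higher in clone 8 than in clone 4 (SE 0.42, adjusted p = 0.0072 in edgeR). It was the only one of the 10 called, and 3.14% of all genes were called in that direction and 0.0246% in the other, in which 0 of the 10 were called. The single vehicle library of clone 8 had 56.5 CPM of mt-Rnr1 against 450 and 302 CPM in the tamoxifen libraries of that clone, so the result rests on vehicle clone8_1, and clone, treatment and that library cannot be told apart. Without tamoxifen clone4_2 the adjusted p was 0.0615, with a value of 2.89, and with libraries scaled to the mitochondrial mRNA sum it was 0.139, with a value of 3.33. mt-Nd1 had the next lowest p, with a difference of 0.77 (SE 0.32, adjusted p = 0.317 in edgeR).

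In vehicle clone8_1, mt-Rnr1 deviated from its median over libraries by -2.16 on the log2 scale, mt-Tp by -0.91, mt-Nd1 by -0.66 and mt-Nd2 by -0.64. mt-Co1 deviated by 0.34 and the others by at most 0.04 in size. The median deviation of 698 nuclear protein-coding genes with transcripts of 900 to 1100 bases, the length of mt-Rnr1, mt-Nd1 and mt-Nd2, was -0.16 in that library. It was 0 for 664 genes of 1100 to 1300 bases and 0.074 for 1377 genes of 1500 to 1900 bases. No class below 900 bases was examined, so mt-Nd6 and mt-Tp have no class to be set beside. The part of this length difference in the low mt-Rnr1 value was not tested.

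**Figure D5:**
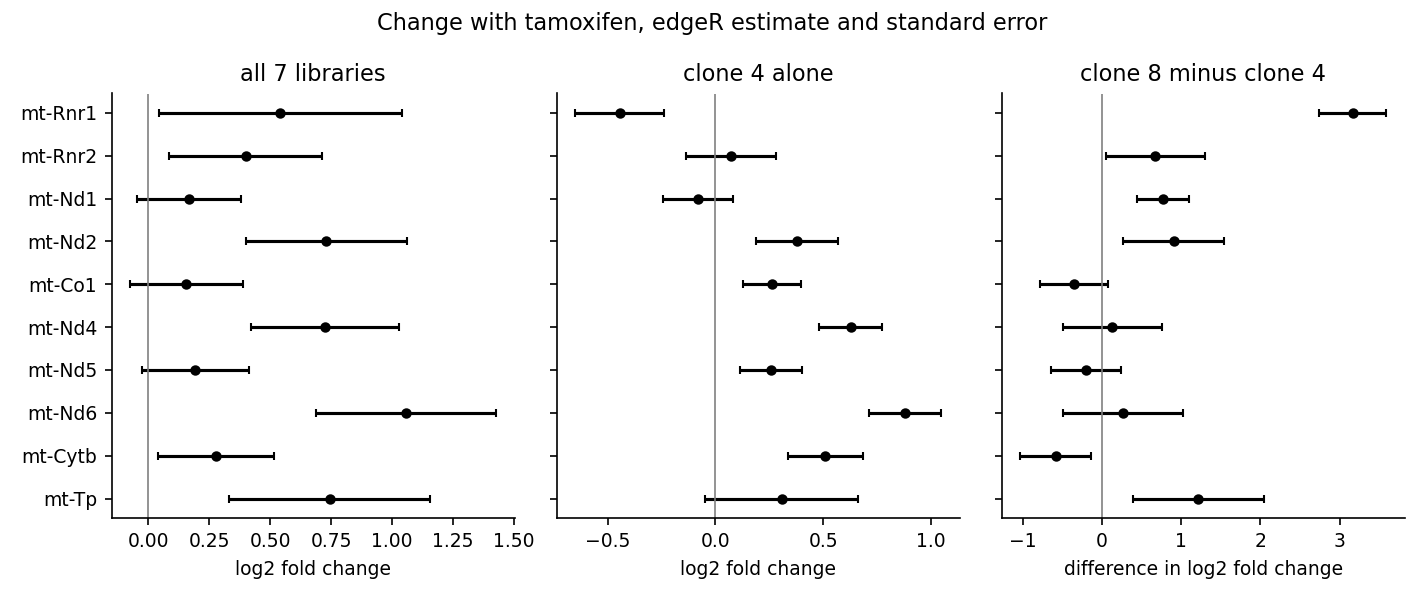
edgeR estimates (points) and standard errors (bars) for the 10 counted mitochondrial genes: log2 fold change in all 7 libraries, log2 fold change in clone 4 alone, and the difference in log2 fold change between clone 8 and clone 4. mt-Nd6 has the largest estimate in the first 2 panels (1.06 and 0.88) and mt-Rnr1 stands apart in the third (3.17).

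Nuclear genes that serve the mitochondrial genome mostly had small estimates. Over 5 lists, 95 genes were tested: 0 were called at an adjusted p under 0.05 in edgeR, 1 was higher and 2 were lower at an unadjusted p under 0.05, where 2.69% and 3.28% of all genes were. Groups did not overlap in 11 of the 95, of which 1 was higher and 10 were lower, while 3.71% of all genes were higher and 4.74% lower without overlap. All 10 trophectoderm markers had estimates below 0, and Gata3, Krt7 and Elf3 were lower at an unadjusted p under 0.05 (3.28% of all genes were). Of the epiblast markers, 8 of 10 were above 0 (median log2 fold change 0.41) and Klf4 was higher at an unadjusted p under 0.05. Of the primitive endoderm markers tested, 6 of 8 were above 0 (median 0.50), with Sox17 and Lama1 higher at an unadjusted p under 0.05 and without overlap (2.69% and 3.71% of all genes were, respectively). The adjusted p of Klf4, Sox17 and Lama1 was 0.794 in edgeR. The part of the 3 marker lists in the values of the mitochondrial genes and of these lists was not tested.

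For transcription and replication of mitochondrial DNA, 16 of 16 genes were tested, with a median log2 fold change of -0.028. Polrmt, the RNA polymerase, was at 50.5 ± 12.6 CPM for vehicle (SD, n = 3) against 41.7 ± 6.54 CPM for tamoxifen (SD, n = 4). Tfam, which packages the DNA and starts transcription, was at 72.2 ± 8.81 and 62.1 ± 5.76 CPM. Tfb2m, the factor that opens the promoter, was at 15.3 ± 3.52 and 13.01 ± 2.35 CPM, and Tefm, the elongation factor, at 52.0 ± 12.0 and 49.0 ± 9.56 CPM. The groups overlapped in these 4 genes, and none had an unadjusted p under 0.05. Mterf1b, a copy of the gene for the transcription termination factor, was at 0.69, 0.97 and 1.24 CPM in vehicle and at 1.49, 2.33, 3.47 and 2.04 CPM in tamoxifen, which is 1.26 on the log2 scale (SE 0.51, adjusted p = 0.794 in edgeR). Mterf1a is a near-identical paralog, so its value is uncertain.

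For RNA processing and stability, 23 of 24 genes were tested, with a median log2 fold change of -0.14. Lrpprc, which stabilises mitochondrial mRNAs, was at 268 ± 48.5 CPM for vehicle (SD, n = 3) against 241 ± 40.4 CPM for tamoxifen (SD, n = 4). Its partner Slirp did not pass the filter, with at most 0.06 CPM in any library. Mto1, which modifies mitochondrial tRNAs, was at 34.6, 48.1 and 37.6 CPM in vehicle and at 21.7, 24.2, 14.9 and 32.1 CPM in tamoxifen. Every tamoxifen library was lower (log2 fold change -0.79, SE 0.26, unadjusted p = 0.013, adjusted p = 0.794 in edgeR).

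For rRNA maturation and translation, 21 of 21 genes were tested and 18 had estimates below 0, with a median of -0.11 against 0.019 over all genes. No gene of that list, and none of the 8 tested of 9 regulators of mitochondrial biogenesis (median -0.14), had an unadjusted p under 0.05. Of the nuclear subunits that assemble with the mitochondrially encoded ones, 27 of 28 were tested, with a median of 0.32 and 17 above 0. Vehicle clone8_1 stood apart in several of them: Uqcrb of complex III was at 53.6 CPM there and at 358 to 451 CPM elsewhere, and Cox8a of complex IV at 93.1 CPM there and at 414 to 698 CPM elsewhere. Without that library 13 of 27 were above 0 and the median was -0.015. Uqcrc2, a core subunit of complex III and so a partner of mt-Cytb, was at 376, 351 and 433 CPM in vehicle and at 307, 289, 295 and 334 CPM in tamoxifen. It was lower in every tamoxifen library (log2 fold change -0.34, SE 0.15, unadjusted p = 0.048, adjusted p = 0.794 in edgeR).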

How the data were processed

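RNA-seq counts per gene were deposited by the authors as raw, unnormalised counts in 1 table. Per the submitters' processing notes, mm10, bcl2fastq 2.19.1 and STAR 2.5.3a were used. The counting program, annotation release, strand setting and treatment of reads that match several places are not given in the sources used here. No column of the table lacked a sample.

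Of 52636 gene identifiers, 52489 matched GENCODE M21 (GRCm38), and the 147 others held at most 0.0113% of a library. Atp5o was not matched. Counts were tested with edgeR 4.0.16 (R 4.3.3): TMM scaling, its expression filter by group, quasi-likelihood test, and Benjamini-Hochberg adjustment over all genes tested, with 0.05 as the threshold. DESeq2 1.42.0, other scalings, no filter, covariates and left-out libraries were alternatives. The fit was tested on simulated data. Copies were sought with BLAST 2.17.0 among annotated nuclear transcripts instead of the nuclear genome that had been planned. Matches on a single chromosome were dropped from the list of copies. Libraries were not duplicates (smallest chi-square per degree of freedom 26.1). Low-input libraries without molecular identifiers were amplified, so counting error understates error.

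All 37 mitochondrial genes are accounted for. Named with values are the counted ones, Polrmt, Tfam, Tfb2m, Tefm, Lrpprc, Slirp, list genes with an unadjusted p under 0.05 and no overlap, and the 5 listed copies with most counts. The members and lists were chosen with earlier results of these data known. Length classes and the marker genes and copies named beside a result were picked after values were seen.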

Additional observations from a re-analysis of the deposited data

Results flagged for a closer look

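The ratio of mt-Nd6 to mt-Cytb, on the CPM per kb scale, was 0.242 in tamoxifen clone8_1 and 0.123 to 0.130 in the other 3 tamoxifen libraries. The gap exceeded Dixon's 95% critical value for 4 samples. This was the single such case among 38 sets of 4 tamoxifen libraries examined, and chance gives about 1 in 20. The change of mt-Rnr1 with tamoxifen differed between the clones by 3.17 on the log2 scale in edgeR's test of the interaction (adjusted p = 0.0072), where the only vehicle library of clone 8 was lowest of all 7 libraries. Within clone 4 the log2 fold change was -0.44 (unadjusted p = 0.068 in edgeR).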

How the results depend on the processing

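Under 14 alternatives, 132 of 140 log2 fold changes of the 10 genes kept direction and side of the threshold, and 8 changed sign. With both clone8_1 libraries left out mt-Rnr1 was at -0.21, mt-Rnr2 at -0.043 and mt-Nd1 at -0.13. With the mitochondrial mRNA sum as library size, which moved the median of all genes from 0.019 to -0.17, mt-Nd1 was at -0.085, mt-Co1 at -0.12 and mt-Nd5 at -0.082. With 1 library left out mt-Co1 ranged from -0.035 (without tamoxifen clone8_1) to 0.32 and mt-Nd1 from -0.031 (without vehicle clone8_1) to 0.29. The cause was not tested.

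For condition, all genes called numbered 4 with DESeq2 and 2 with both clone8_1 libraries left out; the mitochondrial genes at an unadjusted p under 0.05 numbered 1 with the latter, 1 with clone as a covariate, 0 with mitochondrial scaling and 0 to 5 with 1 library left out. Within clone 4, genes called numbered 142 with DESeq2 (2 mitochondrial), 217 with no filter (3 mitochondrial, 5 unadjusted) and 0 to 309 with 1 library left out (0 to 2 mitochondrial, 2 to 5 unadjusted), where the lone sample is assumed to vary like the others. For the interaction, called genes numbered 1016 with DESeq2, 991 with no filter (5 mitochondrial genes unadjusted), 0 with mitochondrial scaling (0 mitochondrial, 1 unadjusted), and 52 (without tamoxifen clone4_2) to 695 (without tamoxifen clone8_2) with 1 library left out (0 to 1 mitochondrial, 1 to 7 unadjusted). Without vehicle clone8_1 the interaction has no estimate. The share of all genes at an unadjusted p under 0.05 was not computed for these alternatives. The unadjusted counts therefore cannot be read as results about the mitochondrial genes.

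Same-numbered libraries deviated together by r = 0.0078, 0.021 and -0.068, within the range of differently numbered ones (-0.085 to 0.062). With so few pools this cannot tell whether same-numbered pools shared a litter or a day. With the replicate block, mt-Nd6 was at 1.20 for condition, and 6 mitochondrial genes had an unadjusted p under 0.05 within clone 4. The share of all genes at that threshold in the clone 4 fit was not computed. That fit also rests on few libraries and on pairs that the labels do not establish, so the count is a description. With whole counts divided by unshared windows, mt-Nd4 held 10.6% of the vehicle mRNA level in place of 5.09%. With windows of 50 and 100 bases, 51.1% and 30.8% of those of mt-Co1 were shared. Depth sets the floor given above for the 4 mRNAs at 0 only as far as their reads were counted.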
